A study of Homo sapiens with 17 samples.

Results

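The 6 genes described here encode the enzymes that start the breakdown of leucine, isoleucine and valine, the branched-chain amino acids. They are BCAT1, BCAT2, BCKDHA, BCKDHB, BCKDK and DBT, taken by symbol from the 23230 genes of the count tables. BCAT1 was selected on its measured values, being high in one cell line and low in all 4 knockdown comparisons, so its values in those comparisons are a description with no test. The other 5 were listed by pathway and were tested. RNA was sequenced in 6 groups, with 2 libraries in each. LNCaP-abl (abl below), an androgen-independent subline of the human prostate cancer line LNCaP, received an siRNA against CREB1 (siCREB1), an siRNA against FOXA1 (siFOXA1) or a control siRNA (siControl). LNCaP itself received the same 3 siRNAs. The siRNAs were used at 40 nM over 3 days. All 6 groups were then in 5% charcoal-stripped serum, which is low in steroid hormones. Before treatment abl was kept in 10% charcoal-stripped serum at passages 62 to 64, and LNCaP in 10% serum at passages 32 to 34. Line, passage and earlier medium therefore cannot be told apart. CREB1 is a transcription factor activated by cyclic AMP, and FOXA1 is a pioneer factor of prostate epithelium. Nothing in the labels says that the 2 libraries of a group came from separate cultures, so p-values measure the spread between libraries, which may be technical.

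Breakdown of the branched-chain amino acids begins with a transaminase that moves the amino group to oxoglutarate and so makes glutamate. BCAT1 is the cytosolic transaminase and BCAT2 the mitochondrial one. The resulting branched-chain keto acids are then decarboxylated in mitochondria by the branched-chain keto acid dehydrogenase complex. BCKDHA and BCKDHB form its decarboxylase, DBT is its core transacylase, and DLD is the dehydrogenase it shares with the pyruvate and oxoglutarate dehydrogenase complexes. The kinase BCKDK phosphorylates BCKDHA and switches the complex off, and the phosphatase PPM1K switches it on again. The transaminase step is reversible, whereas decarboxylation commits the carbon skeleton to breakdown.

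The stretches upstream of the gene starts are shown because CREB1 and FOXA1 were the factors knocked down. That of BCKDK runs on to 9 bases past the start, and its marked letters cross the start. RefSeq promoter windows of GRCh38.p14, each running from 250 bases before to 50 after a start, were given for 5 of the 6 genes. BCAT2 had no entry. BCAT1 had 5 windows. Both strands were searched for the CREB element TGACGTCA, for TGACG, which is contained in it, for the C/EBP-ATF element TGATGNAA and for the forkhead element TGTTTNC. Capitals mark the matches, and positions count back from the gene start. The lines below run 5′ to 3′ on the gene's strand.
BCAT1, window 1, chr12:24949102-24949221, minus strand: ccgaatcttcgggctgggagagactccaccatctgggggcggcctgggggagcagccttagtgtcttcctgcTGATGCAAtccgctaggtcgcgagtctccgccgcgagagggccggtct
BCAT1, window 4, chr12:24949341-24949460, minus strand: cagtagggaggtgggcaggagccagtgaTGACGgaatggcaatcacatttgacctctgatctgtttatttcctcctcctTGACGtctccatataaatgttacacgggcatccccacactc
BCKDHA, chr19:41397698-41397817, plus strand: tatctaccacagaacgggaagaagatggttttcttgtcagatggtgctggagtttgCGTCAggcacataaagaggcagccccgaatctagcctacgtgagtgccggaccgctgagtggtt
BCKDHB, chr6:80106471-80106590, plus strand: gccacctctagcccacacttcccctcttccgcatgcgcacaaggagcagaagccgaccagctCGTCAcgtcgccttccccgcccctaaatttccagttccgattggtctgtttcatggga
BCKDK, chr16:31108276-31108394, plus strand: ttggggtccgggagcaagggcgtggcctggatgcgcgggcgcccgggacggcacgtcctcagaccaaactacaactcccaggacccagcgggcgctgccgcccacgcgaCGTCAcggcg

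Window 1 of BCAT1 held TGATGCAA at -48, a form of the C/EBP-ATF element that was found in 3.62% of all 35116 windows. Window 4 held TGACG at -92 and -41, and 24.6% of all windows held these letters. BCKDHA, BCKDHB and BCKDK each held TGACG once on the other strand, read as CGTCA above, with its first base at -64, -138 and -1. The whole element TGACGTCA was in none of the 9 windows searched and in 1.85% of all windows. The forkhead letters TGTTTNC were also in none of the 9, against 18% of all windows, and the DBT window held none of the 4 motifs. Other forms of the forkhead element were not searched, so their absence is not shown. These are letter matches in short windows and show no binding.

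Reads assigned to genes ranged from 9092597 to 37314039 per library, both extremes being abl siControl libraries. CREB1 RNA in the siCREB1 libraries stood at 56.9% of siControl in abl and 41.2% in LNCaP, and FOXA1 RNA in the siFOXA1 libraries at 40.0% in abl and 28.5% in LNCaP. CREB1 RNA also stood at 0.736 times siControl in the siFOXA1 libraries of abl and 0.735 times in those of LNCaP. All 7 luminal prostate markers had counts in every library, but KLK3 was near the floor in abl and KLK2 was low in both lines. KLK3 had 1 to 23 reads in the abl libraries and 436 to 2285 in those of LNCaP. KLK2 had 9 to 43 reads in abl. In LNCaP it had 18 and 38 with siCREB1, 126 and 164 with siFOXA1, and 45 and 16 with siControl. Summed over 7 leukocyte markers, the 8 knockdown libraries lay between 0.255 and 5.10 CPM (counts scaled to library size). The first and second siControl libraries stood at 7.61 and 1.23 CPM in abl and at 6.32 and 0.320 CPM in LNCaP. MPO had no count in 11 of the 12 libraries. The first siControl library of each line thus stood apart from the second, and values without it are given below for some genes. Summed over 5 fibroblast markers, abl libraries lay between 9.20 and 17.8 CPM and LNCaP libraries between 57.8 and 97.4 CPM. COL1A1 was the one counted most in every library, while COL1A2 had no count in any library. Of 3 endothelial markers, VWF was the one counted most in every LNCaP library, and their sum lay between 0.689 and 1.50 CPM in abl and between 2.72 and 31.4 CPM in LNCaP. The part of these markers in the differences between the lines was not tested. The 3 basal markers summed to at most 1.10 CPM.

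BCAT1 was a highly counted gene in abl and barely detectable in LNCaP. In abl it stood at 47.1 and 40.8 CPM with siCREB1, at 29.6 and 24.4 CPM with siFOXA1, and at 210 and 219 CPM with siControl. In LNCaP only 4 and 1 reads were counted with siCREB1, 4 and 2 with siFOXA1, and 18 and 7 with siControl. The highest level in either line was therefore that of control-treated abl, and no library of one line overlapped one of the other. Both knockdowns left abl with far more BCAT1 RNA than any LNCaP library. In bulk RNA, fewer cells with the transcript and less of it per cell cannot be told apart. RefSeq places an antisense RNA, BCAT1-AS1, over BCAT1, and without strand their reads cannot be told apart.

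The log2 change of BCAT1 in abl was -2.29 ± 0.10 (SE) with siCREB1 and -2.99 ± 0.10 with siFOXA1, so that 20.7% and 12.7% of the siControl level remained. In LNCaP the changes were -2.59 with siCREB1 and -2.21 with siFOXA1, each resting on 25 siControl reads. The LNCaP ratio to siControl was 0.159 with siCREB1, with a 95% counting interval of 0.0474 to 0.422. With siFOXA1 it was 0.208, with an interval of 0.0699 to 0.520. These intervals cover counting error only. Leukocyte markers were also higher in the first LNCaP siControl library, and their part in the BCAT1 counts was not tested. Without that library the LNCaP changes were -2.21 with siCREB1 and -1.83 with siFOXA1. Leaving out the first LNCaP siCREB1 library gave -3.77, and leaving out the first LNCaP siFOXA1 library gave -2.81. Without the first abl siControl library the abl changes were -2.31 with siCREB1 and -3.01 with siFOXA1.

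Between the lines, BCAT1 in abl under siControl was 367 times its level in LNCaP, with a counting interval of 248 to 567. Under siCREB1 the ratio was 478, on 5 LNCaP reads, and under siFOXA1 it was 224, on 6 LNCaP reads. Their intervals, 204 to 1472 and 103 to 611, overlapped each other and that of siControl. The difference between the lines thus persisted after either knockdown, although leaving out 1 library moved its log2 value between 8.18 and 10.04 under siCREB1 and between 7.29 and 8.37 under siFOXA1.

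One comparison of BCAT1, that of the siRNAs with each other, was not itself used to choose it. The knockdown libraries compared did enter that choice, however, so the p-values below are not an independent test of BCAT1. In abl, BCAT1 was higher with siCREB1 than with siFOXA1 by a log2 difference of 0.70 ± 0.10, with an adjusted p of 0.000115 in edgeR's quasi-likelihood test, where p-values are adjusted over all 15550 tested genes and a gene is called at an adjusted p below 0.05. In LNCaP the same difference was -0.37 ± 0.87, with an adjusted p of 0.764, and 11 reads in all could not resolve it.

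**Figure D1:**
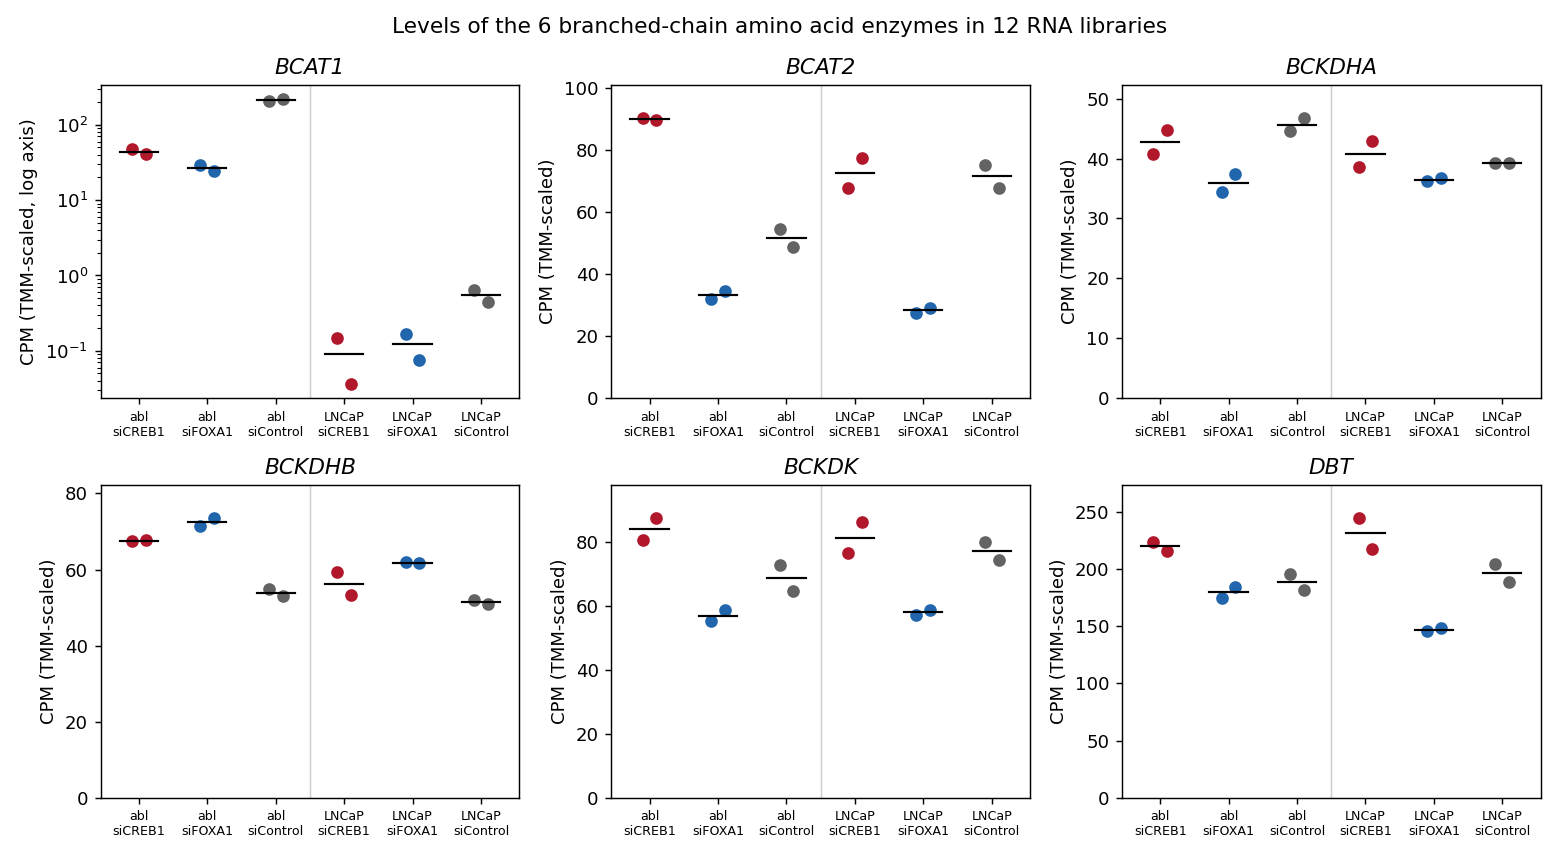
CPM of each gene in every library, by group; points are the 2 libraries, horizontal bars their mean, and the BCAT1 axis is logarithmic. BCAT1 lies between 24.4 and 219 CPM in abl and below 1 CPM in LNCaP, whereas the siFOXA1 groups are the lowest for BCAT2 and BCKDK in both lines.

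BCAT2, the mitochondrial transaminase, did not follow BCAT1. In abl it stood at 90.1 and 89.5 CPM with siCREB1, at 32.0 and 34.4 CPM with siFOXA1, and at 54.4 and 48.6 CPM with siControl. In LNCaP it stood at 67.8 and 77.3 CPM with siCREB1, at 27.5 and 29.0 CPM with siFOXA1, and at 75.2 and 67.8 CPM with siControl. The siFOXA1 libraries were the lowest of each line, and the siCREB1 libraries of abl were the highest of all 12. In abl, BCAT2 rose with siCREB1 by 0.79 ± 0.08 on the log2 scale (adjusted p = 3.54e-06) and fell by 0.65 ± 0.09 with siFOXA1 (adjusted p = 2.37e-05). In LNCaP the siCREB1 value was 0.02 ± 0.08 (adjusted p = 0.886), with libraries that overlapped, and the fall with siFOXA1 was larger, at -1.34 ± 0.09 (adjusted p = 3.31e-08).

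The BCAT2 response differed between the lines by the test of the difference itself. The siCREB1 effect in abl exceeded that in LNCaP by 0.77 ± 0.12 (adjusted p = 0.000316), and the siFOXA1 effect did so by 0.70 ± 0.12 (adjusted p = 0.000622). Under siControl, BCAT2 was lower in abl than in LNCaP by a log2 difference of -0.46 ± 0.08 (adjusted p = 0.000251). Under siCREB1 the order was the other way, with abl above LNCaP by 0.31 ± 0.08 (adjusted p = 0.00408). Under siFOXA1 abl was above LNCaP by 0.23 ± 0.09 (adjusted p = 0.0336), a call that was lost in 5 of 10 alternatives, 3 of which left out the first LNCaP siFOXA1 library (0.20), the second (0.28) or the second abl siFOXA1 library (0.20). The siCREB1 call was lost without the first LNCaP siCREB1 library (0.22).

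The balance of transaminase reads differed between the groups. As BCAT1 was chosen on the values that enter this balance, it is a description with no test. Ratios of BCAT1 to BCAT2 reads, which depend on both transcript lengths and are compared only between libraries, were 0.523 and 0.455 in abl with siCREB1, 0.924 and 0.710 with siFOXA1, and 3.86 and 4.51 with siControl. BCAT1 reads thus outnumbered BCAT2 reads in both siControl libraries of abl and in none of the other 10 libraries. In the 6 LNCaP libraries the ratio was at most 0.00865.

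BCKDHA and BCKDHB, the partner subunits of the decarboxylase, moved in opposite directions with siFOXA1 in abl. BCKDHA in abl stood at 40.8 and 44.8 CPM with siCREB1, at 34.4 and 37.5 CPM with siFOXA1, and at 44.6 and 46.7 CPM with siControl. Its fall with siFOXA1 in abl, by 0.34 ± 0.08 on the log2 scale (adjusted p = 0.00237), was the only knockdown change of BCKDHA that passed the test. In LNCaP it stood between 36.2 and 43.0 CPM in all 6 libraries.

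BCKDHB in abl stood at 67.5 and 67.7 CPM with siCREB1, at 71.6 and 73.5 CPM with siFOXA1, and at 54.9 and 52.9 CPM with siControl. The LNCaP libraries had 59.3 and 53.2 CPM with siCREB1, 61.9 and 61.6 CPM with siFOXA1, and 52.0 and 51.1 CPM with siControl. Every knockdown library was above both siControl libraries of its line. BCKDHB rose in abl by 0.32 ± 0.07 with siCREB1 (adjusted p = 0.00106) and by 0.42 ± 0.07 with siFOXA1 (adjusted p = 9.01e-05). It rose in LNCaP with siFOXA1 by 0.26 ± 0.07 (adjusted p = 0.00471), while its siCREB1 value there was 0.13 ± 0.07 (adjusted p = 0.15), and 0.22 and called without the second LNCaP siCREB1 library. BCKDHB was the only one of the 5 tested genes whose siFOXA1 change was an increase in either line.

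DBT, the core transacylase, had its lowest libraries in LNCaP with siFOXA1. It stood in abl at 223 and 216 CPM with siCREB1, at 175 and 184 CPM with siFOXA1, and at 196 and 181 CPM with siControl. LNCaP libraries stood at 244 and 218 CPM with siCREB1, at 146 and 149 CPM with siFOXA1, and at 204 and 188 CPM with siControl. DBT fell with siFOXA1 in LNCaP by 0.42 ± 0.07 (adjusted p = 0.000246), whereas the value in abl was -0.07 ± 0.07 (adjusted p = 0.405). The difference between these effects was 0.35 ± 0.10 (adjusted p = 0.0169), and that call was lost without the first LNCaP siControl library (0.27), the first LNCaP siFOXA1 library (0.32), the second abl siControl library (0.29) or the second abl siFOXA1 library (0.30). DBT rose with siCREB1 by 0.22 ± 0.07 in abl (adjusted p = 0.0192) and by 0.23 ± 0.07 in LNCaP (adjusted p = 0.0175). The first of these was not called without the first abl siCREB1 library (0.20) or the second abl siControl library (0.17), and the other not without the first LNCaP siCREB1 library (0.17) or the second LNCaP siControl library (0.18), and not in a fit of only the groups compared (0.25).

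BCKDK, the inhibitory kinase, had the same knockdown calls as BCAT2 in both lines. In abl it stood at 80.5 and 87.5 CPM with siCREB1, at 55.2 and 58.6 CPM with siFOXA1, and at 72.7 and 64.9 CPM with siControl. In LNCaP it stood at 76.6 and 86.3 CPM with siCREB1, at 57.3 and 58.7 CPM with siFOXA1, and at 80.0 and 74.5 CPM with siControl. The siFOXA1 libraries were again below all others of their line. BCKDK fell with siFOXA1 in LNCaP by 0.42 ± 0.08 (adjusted p = 0.000679) and in abl by 0.28 ± 0.08 (adjusted p = 0.00837), and it rose with siCREB1 in abl by 0.28 ± 0.08 (adjusted p = 0.0101). The abl siFOXA1 call was lost without the first siControl library (-0.18) or the first siFOXA1 library (-0.24), and the abl siCREB1 call without the second siControl library (0.21) or the second siCREB1 library (0.23). In LNCaP with siCREB1 the value was 0.07 ± 0.08 (adjusted p = 0.492). Unlike for BCAT2, no difference between the lines in an siRNA effect was called for BCKDK. These differences were 0.20 ± 0.11 for siCREB1 (adjusted p = 0.211) and 0.13 ± 0.11 for siFOXA1 (adjusted p = 0.425).

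PPM1K, the phosphatase that opposes BCKDK, stood in abl at 47.0 and 47.4 CPM with siCREB1, at 43.5 and 40.3 CPM with siFOXA1, and at 57.2 CPM in both siControl libraries. It fell in abl by 0.28 ± 0.07 with siCREB1 (adjusted p = 0.00352) and by 0.45 ± 0.07 with siFOXA1 (adjusted p = 6.94e-05). In LNCaP it lay between 29.5 and 35.3 CPM, with neither knockdown called. The siRNA effects on PPM1K in abl and LNCaP differed by -0.36 ± 0.10 for siCREB1 (adjusted p = 0.0153; not called without the second LNCaP siControl library, -0.31) and by -0.62 ± 0.10 for siFOXA1 (adjusted p = 0.00026). Under siControl abl had more PPM1K than LNCaP by 0.90 ± 0.07 (adjusted p = 6.57e-08). DLD, the shared dehydrogenase, rose in all 4 knockdown comparisons, by 0.25 and 0.44 in abl and by 0.24 and 0.22 in LNCaP for siCREB1 and siFOXA1 in that order, with adjusted p-values between 2.03e-05 and 0.00658.

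**Figure D2:**
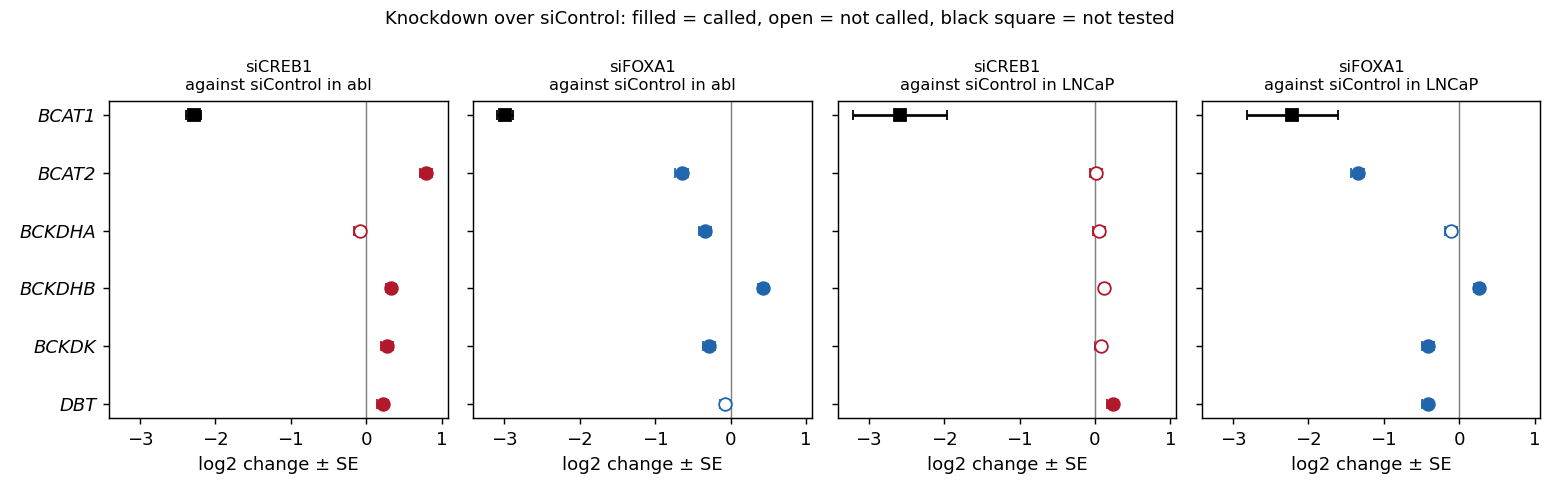
Log2 change with its SE for each gene in the 4 knockdown comparisons, each against siControl of the same line; filled circles were called, open circles were not, and black squares (BCAT1) were not tested. BCAT1 lies below -2 in all 4 panels, and BCKDHB is to the right of 0 in each.

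Counted over the 5 tested genes, siCREB1 in abl raised 4 and lowered none, where 27.5% of all tested genes were called higher and 23.7% lower. With siFOXA1 in abl, 1 rose and 3 fell, where 29.9% of all genes were called higher and 26.5% lower. In LNCaP, 1 rose and none fell with siCREB1, against 17.8% of all genes called higher and 19.8% lower. With siFOXA1 in LNCaP, 1 rose and 3 fell, against 24.4% called higher and 25.5% lower. Without the first siControl library of the line, the abl siFOXA1 count became 1 higher and 2 lower, and the other 3 counts were as before. Without the second siControl library of abl only 2 rose with siCREB1 there, as BCKDK and DBT were no longer called. The single LNCaP siCREB1 call, that of DBT, was lost without the first LNCaP siCREB1 library or the second LNCaP siControl library, leaving 0, and 2 were called without the second LNCaP siCREB1 library. The median log2 change of the 5 was 0.28 and -0.28 in abl and 0.07 and -0.42 in LNCaP for siCREB1 and siFOXA1, while the median of all genes lay between -0.01 and 0.03. The siCREB1 and siFOXA1 comparisons of a line share their siControl libraries, so similar values in both are not independent.

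Between abl and LNCaP under siControl, BCKDHA was higher in abl and BCAT2 lower, and the other 3 were not called, where 30.5% of all genes were called higher and 33.1% lower. The BCKDHA call, 0.21 ± 0.08 with an adjusted p of 0.0322, was lost in 5 of 10 alternatives, 3 of which left out the first LNCaP siControl library (0.23), the second (0.21) or the second abl siControl library (0.19). Under siCREB1, BCAT2 and BCKDHB were higher in abl and none was lower, against 31.6% of all genes called higher and 30.1% lower. Under siFOXA1, BCAT2, BCKDHB and DBT were higher in abl and none was lower, against 30.2% called higher and 30.9% lower. BCKDHB stood above LNCaP by 0.26 ± 0.06 under siCREB1 (adjusted p = 0.00261) and by 0.23 ± 0.06 under siFOXA1 (adjusted p = 0.00627), and DBT by 0.29 ± 0.07 under siFOXA1 (adjusted p = 0.00275), and all 3 calls were lost with library size alone as scaling. With that scaling BCKDK under siControl (-0.22) and DBT under siCREB1 (-0.19) were called lower in abl. The difference between the lines in the siCREB1 effect was called for BCAT2 alone of the 5 and was positive, against 25.5% of all genes called and 14.8% called higher. That in the siFOXA1 effect was called for BCAT2 and DBT, both positive, against 32.6% of all genes called and 17.9% called higher.

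Set directly against each other, siCREB1 gave higher levels than siFOXA1 for 5 of the 6 genes in abl, where 20% of all genes were called higher. One of these 5 was BCAT1, whose choice rested on values from the same libraries. In LNCaP siCREB1 gave higher levels for 3 of 6, against 20.6% of all genes, and BCAT1 was not among the 3. None of the 6 was called lower in either line. Of the 15550 tested genes, 6368 were called in abl in either direction, 3107 of them higher. In LNCaP these numbers were 6691 and 3200. BCAT2 had the largest difference of the 6, 1.43 ± 0.08 in abl (adjusted p = 2.99e-08) and 1.36 ± 0.08 in LNCaP (adjusted p = 2.85e-08). BCKDK differed by 0.56 ± 0.08 in abl (adjusted p = 7.19e-05) and 0.49 ± 0.08 in LNCaP (adjusted p = 0.000186), and DBT by 0.29 ± 0.07 in abl (adjusted p = 0.00439) and 0.65 ± 0.07 in LNCaP (adjusted p = 4.93e-06). BCKDHA differed in abl by 0.25 ± 0.08 (adjusted p = 0.0186), a call lost without the second abl siCREB1 library (0.19) or the first abl siFOXA1 library (0.20). BCKDHB was called in neither line, with -0.10 ± 0.06 in abl (adjusted p = 0.23) and -0.13 ± 0.06 in LNCaP (adjusted p = 0.11), although without the first LNCaP siCREB1 library the LNCaP value was called (-0.21).

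Beyond the dehydrogenase complex, leucine, isoleucine and valine are broken down along separate branches, and 21 enzymes of these branches and of the propionyl-CoA steps were all tested. In abl, 12 rose and 1 fell with siCREB1, and 13 rose and 4 fell with siFOXA1. In LNCaP, 11 rose and 1 fell with siCREB1, and 11 rose and 6 fell with siFOXA1. For the same 4 comparisons, 27.5%, 29.9%, 17.8% and 24.4% of all tested genes were called higher, and 23.7%, 26.5%, 19.8% and 25.5% lower. The median log2 changes of the 21 were 0.26 and 0.35 in abl and 0.18 and 0.23 in LNCaP, while the median of all genes lay between -0.01 and 0.03. Without the first siControl library of the line, the abl siFOXA1 count was 12 higher and 2 lower, and 9 rose and 1 fell with siCREB1 in LNCaP. The abl siFOXA1 count of those lower was also 2 without the first abl siFOXA1 library, without the second abl siControl library or with no filter on low counts. Under siControl, 6 were higher and 10 lower in abl than in LNCaP, against 30.5% and 33.1% of all genes.

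MCCC2, a subunit of the methylcrotonyl-CoA carboxylase of leucine breakdown, showed the largest change of the 21 with each siFOXA1 treatment. It stood in abl at 94.96 and 91.9 CPM with siCREB1, at 28.1 and 33.7 CPM with siFOXA1, and at 170 and 155 CPM with siControl. In LNCaP it had 138 CPM in both siCREB1 libraries, 30.0 and 33.9 CPM with siFOXA1, and 323 and 362 CPM with siControl. The siFOXA1 libraries of both lines thus lay at about the same level, although their siControl levels differed. The log2 changes were -0.80 ± 0.09 and -2.40 ± 0.09 in abl, and -1.31 ± 0.09 and -3.42 ± 0.09 in LNCaP, for siCREB1 and siFOXA1 in that order, with adjusted p-values between 1.8e-11 and 4.5e-06. The abl effect was weaker than the LNCaP effect by 0.51 ± 0.12 for siCREB1 (adjusted p = 0.00721) and by 1.02 ± 0.13 for siFOXA1 (adjusted p = 4.39e-05). MCCC1, the other subunit of the same carboxylase, rose in all 4, by 0.79 and 0.79 in abl and by 0.44 and 0.69 in LNCaP, with adjusted p-values between 7.92e-08 and 5.48e-05. IVD, the dehydrogenase one step earlier, also rose in all 4, by 0.36 and 0.82 in abl and by 0.41 and 0.65 in LNCaP, with adjusted p-values between 1.6e-07 and 0.000421. AUH, the hydratase that follows, had values between -0.03 and 0.23. It was called with siFOXA1 only, by 0.22 in abl (adjusted p = 0.0211) and 0.23 in LNCaP (adjusted p = 0.0185). These calls were lost in 4 and 2 of 10 alternatives.

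In the valine branch, HIBADH, an oxidoreductase that acts on hydroxyisobutyrate, rose in all 4 knockdown comparisons. It stood in abl at 193 and 194 CPM with siCREB1, at 183 and 197 CPM with siFOXA1, and at 98.5 and 88.9 CPM with siControl, which are changes of 1.04 ± 0.08 (adjusted p = 1.15e-07) and 1.01 ± 0.08 (adjusted p = 8.52e-08). In LNCaP its changes were 0.54 and 0.88. ACAD8, the isobutyryl-CoA dehydrogenase, rose by 0.65 and 0.55 in abl and by 0.59 and 0.35 in LNCaP. HIBCH, the hydrolase between them, rose by 0.80 in abl and 0.93 in LNCaP with siFOXA1, while ALDH6A1, the last enzyme, fell with siFOXA1 by 0.18 in abl and 0.47 in LNCaP. The abl call of ALDH6A1 was lost without the first abl siFOXA1 library (-0.12), the first abl siControl library (-0.21) or the second (-0.15).

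Of the isoleucine enzymes, ACADSB, the first dehydrogenase of that branch, fell with siFOXA1 by 0.60 ± 0.08 in abl (adjusted p = 1.12e-05) and by 1.05 ± 0.08 in LNCaP (adjusted p = 1.21e-07). ECHS1, an enoyl-CoA hydratase, rose in abl by 0.67 and 0.74, and ACAT1, the thiolase that ends the branch, rose in all 4 by 0.41 to 0.63. Of the propionyl-CoA enzymes, PCCB, a subunit of propionyl-CoA carboxylase, rose in all 4 by 0.19 to 0.86, the lowest value, with siCREB1 in LNCaP, not being called without the second siCREB1 library (0.18). MUT, the methylmalonyl-CoA mutase, fell with siFOXA1 in LNCaP by 0.84 ± 0.06 (adjusted p = 1.66e-07).

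**Figure D3:**
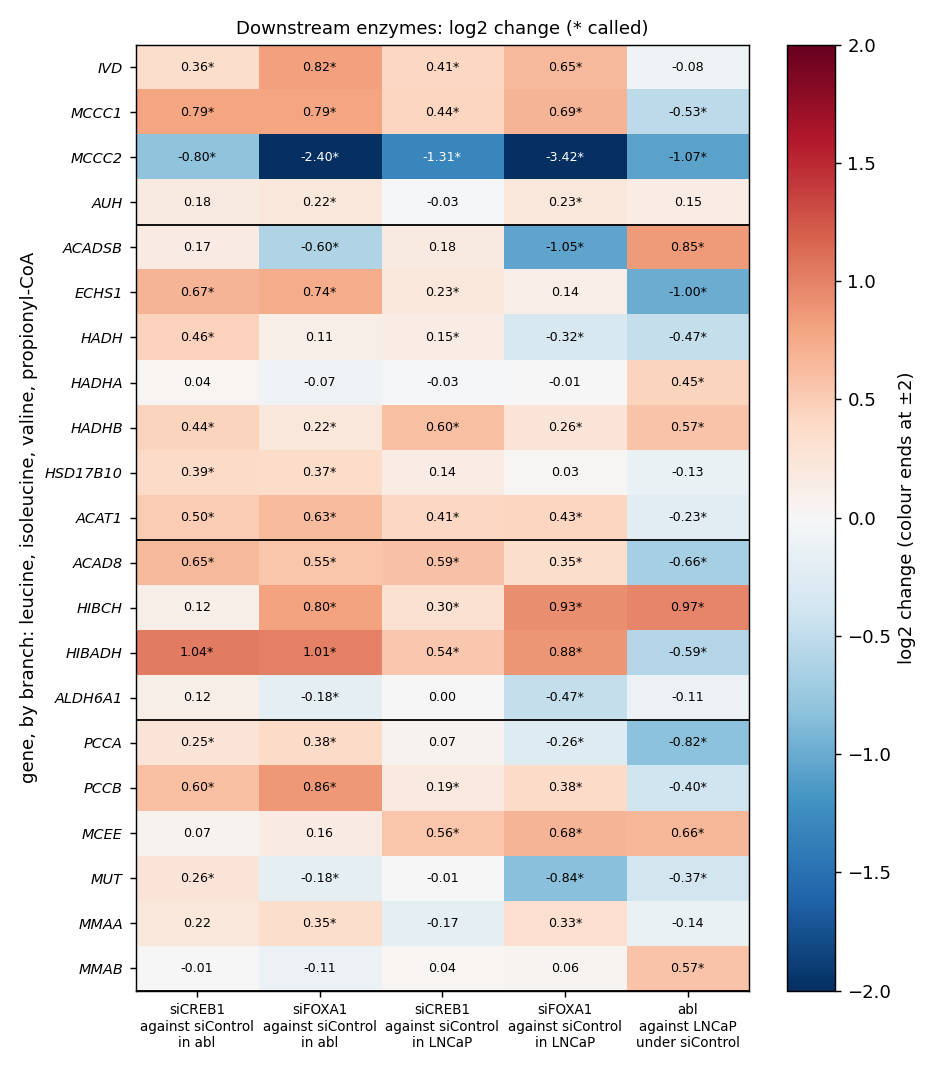
Log2 changes of the 21 downstream enzymes, by branch, in the 4 knockdown comparisons and between the lines under siControl; red is higher, blue is lower, colours end at ±2, and an asterisk marks a call. MCCC2 is the only row that is blue in all 5 columns, while IVD, MCCC1, HADHB, ACAT1, ACAD8, HIBADH and PCCB are red and called in all 4 knockdown columns.

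Among 7 transporters of branched-chain amino acids, 6 were tested and SLC6A15 had no count in any library. SLC7A5, the light chain of the large neutral amino acid exchanger, followed BCAT1. It stood in abl at 290 and 259 CPM with siCREB1, at 174 and 194 CPM with siFOXA1, and at 1209 and 1240 CPM with siControl. LNCaP libraries stood at 5.52 and 5.40 CPM with siCREB1, at 3.92 and 5.39 CPM with siFOXA1, and at 13.7 and 12.04 CPM with siControl. Unlike BCAT1, it was counted well above the noise in LNCaP. As with BCAT1, both of its siControl libraries there lay above all its knockdown libraries. Its changes were -2.16 ± 0.09 and -2.74 ± 0.09 in abl, and -1.25 ± 0.13 and -1.47 ± 0.14 in LNCaP, with adjusted p-values between 4.77e-11 and 1.07e-05. Those effects were larger in abl, by -0.91 ± 0.16 for siCREB1 (adjusted p = 0.000964) and by -1.27 ± 0.17 for siFOXA1 (adjusted p = 6.75e-05). Under siControl abl exceeded LNCaP by 6.56 ± 0.11 (adjusted p = 3.8e-14).

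SLC3A2, the heavy chain that pairs with SLC7A5, moved in opposite directions in the lines. It stood in abl at 408 and 315 CPM with siCREB1, at 509 and 387 CPM with siFOXA1, and at 939 and 975 CPM with siControl. In LNCaP it stood at 226 and 207 CPM with siCREB1, at 275 and 236 CPM with siFOXA1, and at 146 and 150 CPM with siControl. SLC3A2 fell in abl by 1.41 ± 0.13 and 1.10 ± 0.13 and rose in LNCaP by 0.55 ± 0.13 and 0.79 ± 0.13, with adjusted p-values between 9.27e-07 and 0.00459. The difference between the lines was -1.95 ± 0.18 for siCREB1 (adjusted p = 6.36e-06) and -1.88 ± 0.18 for siFOXA1 (adjusted p = 4.84e-06). SLC7A8, another light chain, rose with siFOXA1 by 1.28 ± 0.07 in abl (adjusted p = 3.11e-09) and by 1.54 ± 0.07 in LNCaP (adjusted p = 1.22e-09). SLC43A1, a transporter of large neutral amino acids that needs no heavy chain, had 1.35 and 1.54 CPM in abl with siCREB1, 0.643 and 0.562 CPM with siFOXA1, and 4.64 and 4.79 CPM with siControl. In LNCaP it had 20.7 and 22.4 CPM with siCREB1, 10.7 and 15.8 CPM with siFOXA1, and 19.9 and 22.2 CPM with siControl. Its order between the lines was thus the reverse of that of SLC7A5, while its falls in abl, by 1.69 ± 0.24 (adjusted p = 5.44e-05) and 2.95 ± 0.29 (adjusted p = 1.26e-06), had the same direction. In LNCaP it fell with siFOXA1 by 0.66 ± 0.14 (adjusted p = 0.00186) and had 0.04 ± 0.14 with siCREB1 (adjusted p = 0.857). Over the 6 transporters, 1 rose and 3 fell with siCREB1 in abl, 1 rose and 4 fell with siFOXA1 in abl, 2 rose and 1 fell with siCREB1 in LNCaP, and 2 rose and 2 fell with siFOXA1 in LNCaP. Their median changes, in the same order, were -0.62, -0.81, 0.08 and -0.04. The shares of all genes called in these 4 comparisons, 27.5%, 29.9%, 17.8% and 24.4% higher and 23.7%, 26.5%, 19.8% and 25.5% lower, also apply to the lists that follow.

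Other aminotransferases did not share a direction. Of 13 in the list 12 were tested, and 5 rose and 5 fell with siCREB1 in abl, 6 rose and 4 fell with siFOXA1 in abl, 5 rose and none fell with siCREB1 in LNCaP, and 4 rose and 2 fell with siFOXA1 in LNCaP. Their median changes, in the same order, were -0.06, 0.34, 0.20 and -0.01. PSAT1, the aminotransferase of serine synthesis, stood in abl at 232 and 220 CPM with siCREB1, at 109 and 110 CPM with siFOXA1, and at 740 and 795 CPM with siControl. Its abl changes were -1.76 ± 0.06 (adjusted p = 1.87e-10) and -2.81 ± 0.07 (adjusted p = 3.22e-12), against 0.35 ± 0.06 (adjusted p = 0.000615) and -0.77 ± 0.06 (adjusted p = 3.79e-07) in LNCaP. ABAT, the GABA transaminase, went the other way in abl, with 39.3 and 39.0 CPM with siCREB1, 21.9 and 18.4 CPM with siFOXA1, and 8.42 and 4.57 CPM with siControl. ABAT rose there by 2.41 ± 0.14 (adjusted p = 1.98e-08) and 1.46 ± 0.15 (adjusted p = 1.99e-06), and in LNCaP by 0.46 ± 0.11 with siCREB1 (adjusted p = 0.00363). Over 10 alternatives its abl changes ranged from 2.22 to 3.11 with siCREB1 and from 1.26 to 2.15 with siFOXA1. GPT2, the mitochondrial alanine aminotransferase, stood in abl at 95.4 and 86.5 CPM with siCREB1, at 46.8 and 47.5 CPM with siFOXA1, and at 208 and 239 CPM with siControl, so that it fell by 1.29 ± 0.07 (adjusted p = 1.06e-08) and 2.24 ± 0.08 (adjusted p = 5.55e-11). In LNCaP it fell with siFOXA1 by 0.42 ± 0.07 (adjusted p = 0.000314) and had 0.17 ± 0.07 with siCREB1 (adjusted p = 0.0788). OAT, the ornithine aminotransferase, rose with siFOXA1 in both lines, by 0.90 ± 0.13 in abl (adjusted p = 3.76e-05) and 1.64 ± 0.12 in LNCaP (adjusted p = 1.04e-07). With siCREB1 it fell in abl by 0.54 ± 0.14 (adjusted p = 0.00594), a call lost without the first abl siControl library (-0.56). CCBL1, a kynurenine aminotransferase, was counted at under 11 CPM and rose in abl by 1.50 ± 0.21 and 1.79 ± 0.20 (adjusted p = 3.62e-05 and 4.08e-06).

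The sister complexes that share DLD with the branched-chain dehydrogenase were also measured. All 3 tested genes of the oxoglutarate dehydrogenase complex rose in abl with both siRNAs, OGDH by 0.60 and 0.64, OGDHL by 1.02 and 1.03, and DLST by 0.53 and 0.65. In LNCaP none of the 3 rose, and OGDH fell with siFOXA1 by 0.34, which was not called without the first LNCaP siFOXA1 library (-0.26). Of 10 tested genes of the pyruvate complex and its regulators, 4 rose and 2 fell with siCREB1 in abl, 4 rose and 3 fell with siFOXA1 in abl, 3 rose and 3 fell with siCREB1 in LNCaP, and 3 rose and 2 fell with siFOXA1 in LNCaP. PDHB and PDHA1, which form the pyruvate decarboxylase, rose in all 4 comparisons, PDHB by 0.85 and 1.15 in abl and by 0.30 and 0.49 in LNCaP. PDK2, a kinase related to BCKDK that inhibits the pyruvate complex, stood at 0.444 and 0 CPM in abl and at 46.4 and 49.2 CPM in LNCaP under siControl. The enzymes that charge transfer RNA with the same amino acids included IARS for isoleucine, which fell in abl by 1.26 ± 0.06 (adjusted p = 4.09e-09) with siCREB1 and by 1.51 ± 0.06 (adjusted p = 4.86e-10) with siFOXA1. In LNCaP it fell by 0.26 and 0.28, the siCREB1 call being lost without the first LNCaP siCREB1 library (-0.20). LARS, for leucine, fell in abl by 0.56 and 0.94 and was not called in LNCaP. LARS2, its mitochondrial counterpart, rose in abl by 0.82 ± 0.06 (adjusted p = 2.16e-07) and 0.34 ± 0.06 (adjusted p = 0.000511). In LNCaP LARS2 fell with siFOXA1 by 0.27 ± 0.06 (adjusted p = 0.00294), which was not called without the first LNCaP siFOXA1 library (-0.19). Of 6 such enzymes tested, 2 rose and 2 fell with siCREB1 in abl, 1 rose and 3 fell with siFOXA1 in abl, and in LNCaP none rose while 2 fell with siCREB1 and 4 with siFOXA1.

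To see which genes had a pattern like BCAT1, log2 CPM was correlated with it over the 12 libraries for the 10193 tested genes whose mean log2 CPM was 3 or more. The 6 highest were LOC100129917 (r = 0.995), SLC7A5 (r = 0.994), C3orf63 (r = 0.993), OR51E2 (r = 0.991), C2orf18 (r = 0.990) and SEC24D (r = 0.988). All 6 had their highest group mean in control-treated abl, and libraries of one line or treatment are not independent points, so the correlations carry no p. OR51E2, an odorant receptor expressed in prostate, averaged 678 CPM with siCREB1, 655 CPM with siFOXA1 and 1961 CPM with siControl in abl, and between 4.70 and 16.9 CPM in the LNCaP groups. Among the other members, BCAT2 and BCKDK correlated with each other at r = 0.968 over 12 libraries, and MLLT1, a chromatin reader, was the gene most like both (r = 0.977 and 0.969). MRPS31 (r = 0.974) was most like BCKDHB, SEC22A (r = 0.954) most like BCKDHA, and ARHGEF40 (r = 0.945) most like DBT. BCAT1 correlated with the other 5 members at r between -0.06 and 0.45.

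**Figure D4:**
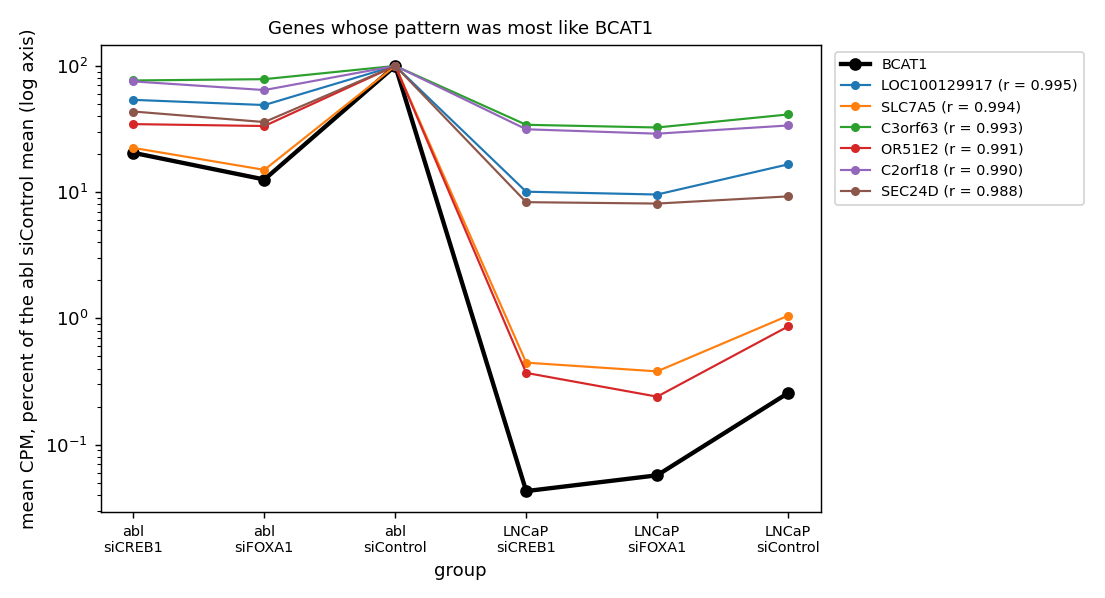
Mean CPM of BCAT1 and of the 6 genes most like it, in each group as a percentage of the gene's own abl siControl mean, on a logarithmic axis. Every line peaks at abl siControl, and BCAT1 has the deepest drop in LNCaP, with OR51E2 and SLC7A5 next.

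In the authors' deposited table for each knockdown, BCAT1 was listed in all 4, with log2 changes of -2.29 and -2.98 in abl and -2.56 and -2.19 in LNCaP for siCREB1 and siFOXA1. BCAT2 was listed with 0.79 and -0.64 in abl and -1.33 for siFOXA1 in LNCaP in the authors' deposited tables. These tables hold genes up to an adjusted p of 0.05, and DBT for siCREB1 in LNCaP, which was called here, was not listed there.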

How the data were processed

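Raw read counts per gene were deposited by the authors for 6 RNA samples, with 2 columns each, taken as 2 libraries. Columns named SIC were read as siControl, and their 8 repeats were identical. Per the submitters' processing notes, TopHat2 2.0.8, HTSeq 0.5.3p9, edgeR 3.0.6 and hg19 were used. The sources used here give neither annotation nor strand setting, and the kit, per the labels' protocols, does not mark strand. Annotated noncoding RNAs or pseudogenes, and for BCAT1 also a protein-coding gene, overlap BCAT1, BCAT2, BCKDHB and DBT (GRCh38), so their reads could mix. Reads with no feature were 54.8% to 58.3% of the total and were left out. The log2 fold changes and p-values in the authors' deposited tables were only compared. Of 23230 genes, 15550 passed filterByExpr. All 12 libraries entered 1 edgeR 4.0.16 quasi-likelihood fit (R 4.3.3, TMM) with 6 residual degrees of freedom, tested on simulated data. Adjusted p-values are Benjamini-Hochberg over all tested genes. CPM are TMM-scaled, and each SE was obtained by dividing the change by the square root of F. Pairs of libraries differed beyond counting noise, with chi-square per degree of freedom of 4.35 to 10.2.

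Members and pathway lists were chosen with earlier results of these data known. Named genes were taken from the members, the called list genes with the largest changes (2 per list and comparison), the leucine and valine branches, and the 6 genes most like BCAT1 (2 for other members). Not every gene this rule gives is described, and the lists of glutamate and lipoate enzymes are left out. Peak lists were not used here, and 1 gene of the lists is not reported here. Alternatives were other scaling, no filter, DESeq2 1.42.0, only the groups compared, a replicate block, and leaving out each library.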

Additional observations from a re-analysis of the deposited data

Results flagged for a closer look

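Among the members and the pathway genes named above, these knockdown effects differed between the lines by the test of the difference in the same edgeR fit, given as abl minus LNCaP on the log2 scale. For BCAT2 the siCREB1 effects differed by 0.77, from 0.79 in abl and 0.02 in LNCaP, and the siFOXA1 effects by 0.70, from -0.65 in abl and -1.34 in LNCaP. For DBT the siFOXA1 effects differed by 0.35, from -0.07 in abl and -0.42 in LNCaP. Among the regulator and the leucine enzymes, PPM1K differed by -0.36 for siCREB1 and -0.62 for siFOXA1, MCCC2 by 0.51 and 1.02 in that order, and MCCC1 by 0.36 for siCREB1. Of the isoleucine and valine enzymes, ECHS1 differed by 0.45 and 0.61, HIBADH by 0.50 for siCREB1, and ACADSB by 0.45 and ALDH6A1 by 0.29 for siFOXA1. Of the propionyl-CoA enzymes, PCCB differed by 0.40 and 0.49 and MUT by 0.27 and 0.66.

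Of the transporters, SLC7A5 differed by -0.91 for siCREB1 and -1.27 for siFOXA1, SLC3A2 by -1.95 and -1.88, SLC43A1 by -1.73 and -2.29, and SLC7A8 by 0.54 and -0.26. The aminotransferases PSAT1 (-2.12 and -2.04) and GPT2 (-1.46 and -1.82) had negative differences, ABAT (1.95 and 1.66) and CCBL1 (0.97 and 1.57) positive ones, and OAT differed by -0.74 for siFOXA1. In the sister complexes the differences called among the named genes were positive, PDHA1 with 0.41 and 0.47, PDHB with 0.55 and 0.66, OGDH with 0.78 and 0.98, OGDHL with 0.92 and 1.14, and DLST with 0.42 and 0.65. Of the 10 tested genes of the pyruvate list, 3 were called positive and 1 negative for siCREB1, and 5 and 1 for siFOXA1. The negative one was PDK1 in both, with -0.32 and -0.63. The synthetases IARS (-0.996 and -1.22) and LARS (-0.40 and -0.95) were negative, and LARS2 (0.77 and 0.60) was positive. The difference of MUT for siCREB1 was lost in 12 of 14 alternatives, and those of ALDH6A1 and SLC7A8 for siFOXA1 in 7 each, most of them leaving out 1 library. Over all genes, 25.5% were called for the difference in siCREB1 effects and 32.6% for that in siFOXA1 effects.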

How the results depend on the processing

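Counts of called genes stayed within 1.5 times in all 118 alternatives, and total counts of called downstream enzymes in all 50, while the number of these lower with siFOXA1 in abl ranged from 2 to 4. Of 609 alternatives for tested members, 560 kept direction and call, 29 lost and 4 gained a call, and 16 changed sign. Of 98 for the BCAT1 description, 89 moved less than the spread between libraries, 7 more and 2 changed sign. Of 2008 for called pathway genes, 1950 kept their call and 58 lost it. The number of members called stayed within 1.5 times in 103 of 118. Leaving out 1 library moved it between 2 and 4 for siCREB1 in abl and between 0 and 2 in LNCaP, where a fit of only the groups compared gave 0. It moved between 1 and 2 for abl against LNCaP under siControl, where no filter gave 1, for the same under siCREB1, and for the difference in siFOXA1 effects. For abl against LNCaP under siFOXA1 library size alone gave 0. With library size alone as scaling, abl against LNCaP under siCREB1 turned to -0.040 for BCKDHA and -0.065 for BCKDK, as the median of all genes moved to -0.10 there and to -0.12 under siFOXA1. Leaving out 1 library changed the sign of these uncalled values, given as lowest and highest: BCAT2 (-0.062 to 0.13) and BCKDHA (-0.0067 to 0.16) with siCREB1 in LNCaP; DBT between the lines under siControl (-0.11 to 0.027) and siCREB1 (-0.14 to 0.017); BCKDK between the lines under siCREB1 (-0.033 to 0.15) and siFOXA1 (-0.057 to 0.021); BCKDHA between the lines under siFOXA1 (-0.071 to 0.044). The same held for BCAT1 in siCREB1 against siFOXA1 in LNCaP (-1.58 to 0.28), and for the difference between lines of the siCREB1 effects on BCAT1 (-0.37 to 1.49) and DBT (-0.11 to 0.052). The cause was not tested.

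Column numbers do not pair libraries by the labels. Deviations of same-numbered libraries correlated at -0.17 to 0.51 over 15 pairs of groups, above 0.1 in 7. With a replicate block, 8115 genes were called for siCREB1 and 8909 for siFOXA1 in abl, and 6124 and 7900 in LNCaP, against 7962, 8779, 5846 and 7748 without it. BCAT1 counts in LNCaP, at most 18 a library, limit any value there. Assignments of peaks to genes at other windows, thresholds and overlaps were not run.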
